A study of Mus musculus with 13 samples.

Results

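Brown adipose tissue of mice lacking Stim1 and Stim2 in adipocytes was compared with that of floxed control mice after both had spent the same 6 h at 4 °C. The comparison uses 8 of the 13 libraries of the series, those labelled as cold: 4 control libraries (Stim1/2_fl/fl, floxed alleles with both genes kept) and 4 knockout libraries (KO, Stim1/2_Adp-Cre, both genes deleted by Cre under the adiponectin promoter). That promoter is active in adipocytes, so endothelial, stromal, immune and nerve cells of the tissue keep both genes, and no group carries Cre with unfloxed alleles. The other 5 libraries come from mice of the same genotypes kept at room temperature (RT, 2 control and 3 KO), and they enter here only through the shared estimate of the spread and as values beside the cold ones. The labels give no age, sex or strain and leave unsaid whether each sample is a different mouse. The p-values therefore speak of the variation among these 13 libraries alone, some of which may be technical.

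STIM1 and STIM2 are membrane proteins of the endoplasmic reticulum (ER) that sense calcium in its lumen. When that store runs low they gather where the ER touches the plasma membrane and open Orai channels, and SERCA pumps then refill the ER, where many folding enzymes are themselves calcium-binding proteins. In brown fat, cold acts through noradrenaline, beta-adrenergic receptors and cAMP to start lipolysis, uncoupled respiration by UCP1 and a wave of gene expression. The title of the series poses the question of what calcium entry at these contacts does for thermogenesis, and the KO against control comparison in cold addresses it at the level of RNA.

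Each library counted tags read at the 3′ end of mRNAs, and held 1570684 to 1921870 counts with 15506 to 16106 genes detected in the cold libraries. Of 55357 Ensembl genes, 11073 had enough counts to be tested. Levels below are counts per 1000000 (CPM) after TMM scaling. A fold change is log2 of KO over control with its standard error (SE), and an adjusted p is from edgeR's quasi-likelihood test with Benjamini-Hochberg adjustment over all 11073 genes, called under 0.05. In a bulk tissue sample, fewer cells of a type and less RNA per cell cannot be told apart. Because use of strand in counting is not given in the sources used here, a gene cannot be told from an antisense or overlapping partner. The first principal component of the 8 cold libraries held 29.9% of the variance and put all 4 control libraries (scores -27.98 to -13.94) on one side of all 4 KO libraries (19.01 to 26.97).

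The deleted genes were checked first. Stim1 stood at 129, 120.5, 134 and 114 CPM in the 4 control cold libraries, in order of their numbers, against 81.4, 78.8, 96.8 and 108 CPM in the 4 KO ones. The groups did not overlap, but the difference did not pass (log2 fold change -0.45 ± 0.13, adjusted p = 0.057). Stim1 passed without KO cold 4 (adjusted p 0.0424) and with DESeq2 (0.043). Stim2 stood at 31.1, 32.1, 54.5 and 52.9 CPM in the controls and 13.5, 29.7, 26.4 and 22 CPM in the KO libraries, again without overlap, and it fell (log2 fold change -0.88 ± 0.24, adjusted p = 0.0382). Tags at the 3′ end can lie outside a deleted stretch, and cells without Cre keep both genes, so tags of either gene are not bound to vanish. Stim2 lost its call without control cold 3, control cold 4, KO cold 1, KO cold 3, KO cold 4 or KO RT 1 (adjusted p 0.0533 to 0.105) and with the 8 cold libraries only (0.0635). Among the sensors' partners, Orai1, the main channel they open, stood at 8.47 to 17.3 CPM in the controls and 6.12 to 13 CPM in the KO libraries (log2 fold change -0.38 ± 0.32, adjusted p = 0.551).

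After 6 h of cold, 657 genes differed between the genotypes, 5.93% of those tested. In KO, 270 were higher (2.44% of tested genes) and 387 lower (3.49%). Of the 657, 232 differed at least 2-fold (2.1% of tested genes), 109 of them higher and 123 lower. The groups did not overlap in 583 of the 657, against 1418 (12.8%) of all tested genes. With tested genes divided by level into 5 groups of equal size, the most abundant group held 72 higher and 187 lower in KO (11.7% of that group), and the least abundant group 34 and 16 (2.26%). The median SE of a log2 fold change was 0.126 in the most and 0.409 in the least abundant group, so smaller differences could pass among abundant genes. Added up, the 387 lower genes went from 95442 CPM in control to 56226 CPM in KO, and the 270 higher genes from 19552 to 32472 CPM. Over all tested genes the median fold change was -0.01 on the log2 scale, and 5465 were above 0. The count of changed genes depended on single libraries: it was 425 without KO cold 1, 417 without KO cold 2, 400 without KO cold 3 and 392 without KO cold 4. Every gene written below as having risen or fallen kept its call with each of the 13 libraries left out in turn and under each other setting tried, unless a loss is given.

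**Figure D1:**
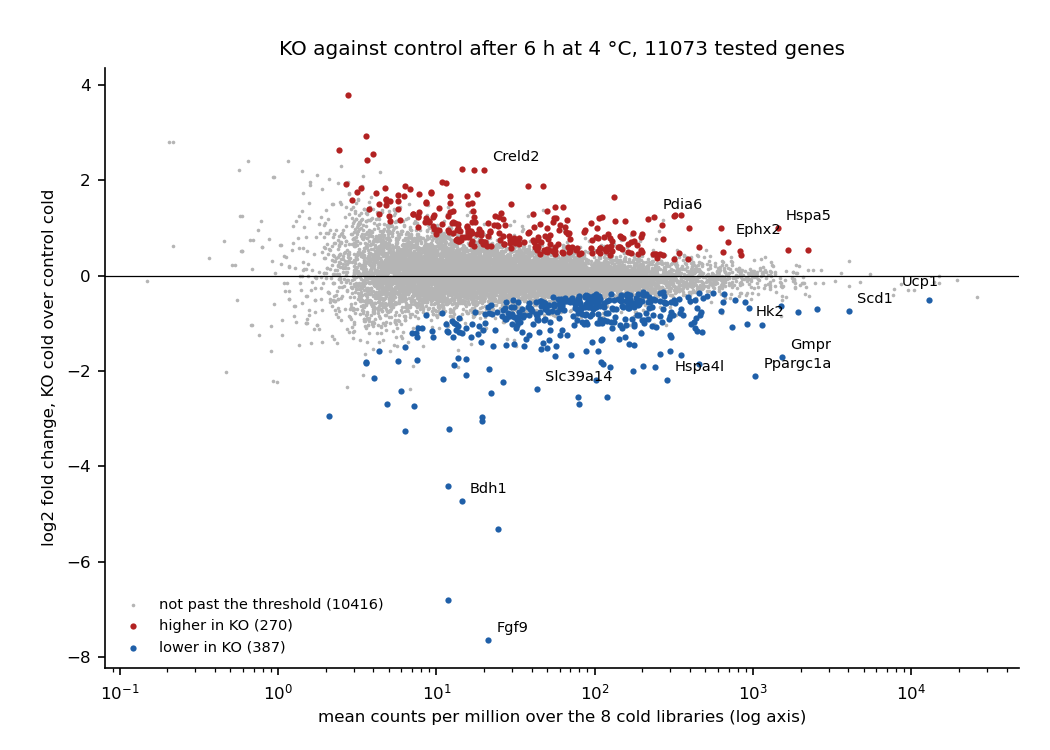
Log2 fold change of KO cold over control cold (vertical axis) against mean CPM over the 8 cold libraries (log axis) for the 11073 tested genes; red points are the 270 genes higher and blue points the 387 genes lower in KO past the threshold, grey points the rest. Blue points outnumber red ones at high levels, and a few genes of low level reach the lowest fold changes.

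Chaperones of the ER lumen were among the genes that rose. Of 25 tested ER lumen chaperones, 8 rose and 1 fell, 20 were above 0 and their median log2 fold change was 0.31, against -0.01 over all tested genes. Their summed level ran from 2592 to 3920 CPM in the controls and from 4105 to 6162 CPM in the KO libraries, with control cold 4 the highest control and KO cold 1 the lowest KO library. Hspa5, which encodes BiP, the main Hsp70 of the ER lumen, stood at 695, 869, 768 and 1491 CPM in the controls and 1514, 2479.7, 2204 and 1437 CPM in KO libraries 1 to 4. It rose (log2 fold change 1.0 ± 0.23, adjusted p = 0.0165), although control cold 4 lay above KO cold 4, so the groups overlapped. Hspa5 lost its call without control cold 2, KO cold 2 or KO cold 3 (adjusted p 0.0504 to 0.0574) and with robust dispersion (0.0557). Hsp90b1, the ER form of Hsp90, stood at 339.8, 399, 362 and 559 CPM in the controls and 597, 1004, 907 and 818 CPM in KO libraries. Here the highest control library stayed below the lowest KO library, and the gene rose (log2 fold change 1.0 ± 0.18, adjusted p = 0.00285).

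Calr encodes calreticulin, a calcium-binding lectin chaperone. It stood at 154, 172, 162 and 198 CPM in the controls and 299, 384, 343 and 415 CPM in KO libraries. The groups lay well apart, and Calr rose (log2 fold change 1.07 ± 0.13, adjusted p = 0.00014). Creld2, an ER protein induced by misfolded cargo, stood at 2.88, 5.56, 9.29 and 10.6 CPM in the controls and 18.4, 42.8, 37.1 and 32.2 CPM in KO libraries, and rose (log2 fold change 2.23 ± 0.31, adjusted p = 0.000445). Sdf2l1, a cofactor of BiP and its J-domain partners, stood at 3.09 to 13.4 CPM in the controls and 20.3 to 36 CPM in KO libraries (log2 fold change 2.22 ± 0.39, adjusted p = 0.00282). Manf, a secreted ER-resident factor, was at 43.8 to 84.6 against 113 to 224 CPM (log2 fold change 1.24 ± 0.23, adjusted p = 0.00366), and the BiP co-chaperone Dnajb11 at 37.7 to 50.8 against 67.3 to 105 CPM (log2 fold change 0.91 ± 0.16, adjusted p = 0.00258). Neither pair of ranges overlapped. Dnajc3, a second J-domain co-chaperone of BiP, rose by a smaller amount (log2 fold change 0.65 ± 0.15, adjusted p = 0.0184). Dnajc3 lost its call without control cold 1, control cold 2, KO cold 2 or KO cold 3 (adjusted p 0.0502 to 0.0619). Canx, calnexin, the membrane-bound relative of calreticulin, did not pass (log2 fold change 0.26 ± 0.10, adjusted p = 0.165).

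Enzymes that form and shuffle disulfide bonds split. Of 20 tested, 3 rose, 2 fell and 15 did not pass (25.0% called, beside 5.93% of all genes), with a median log2 fold change of 0.20. Pdia6 stood at 133, 136, 131 and 172 CPM in the controls and 238, 406, 359 and 330.1 CPM in KO libraries, with a wide gap between the groups (log2 fold change 1.22 ± 0.15, adjusted p = 0.000102). Pdia4, a multi-domain disulfide isomerase, rose, at 2.48 to 6.35 CPM in the controls and 7.34 to 22.4 CPM in KO libraries (log2 fold change 1.75 ± 0.37, adjusted p = 0.00992). Gpx8, an ER membrane peroxidase, went the other way, with 99.1, 146, 189.6 and 133 CPM in the controls and 58.1, 95, 65.8 and 82.4 CPM in KO libraries (log2 fold change -0.91 ± 0.19, adjusted p = 0.0094). Every KO library lay below every control library for Gpx8.

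Further lists covered quality control and cargo handling around the ER. Of 31 tested genes of ER-associated degradation, 4 rose and 2 fell (19.4%, beside 5.93% of all genes), with a median log2 fold change of 0.02. Herpud1, a membrane scaffold of that pathway, stood at 159.5, 188, 92.3 and 385 CPM in the controls and 425, 674, 469 and 423 CPM in KO libraries, and rose (log2 fold change 1.28 ± 0.30, adjusted p = 0.0193). Herpud1 lost its call without control cold 1, control cold 2 or KO cold 2 (adjusted p 0.0545 to 0.0635) and with robust dispersion (0.0809). Derl3, a channel component that is scarcely expressed in many tissues, had 2 counts in all 4 control and 38 in all 4 KO libraries, a 17.1-fold ratio with a 95% counting interval of 4.42 to 146 (log2 fold change 3.80 ± 0.92, adjusted p = 0.0241). Derl3 lost its call without control cold 1, control cold 2 or control cold 3 (adjusted p 0.0598 to 0.0696). Ube2g2, the ubiquitin-conjugating enzyme of the pathway, fell, at 85.3 to 138 CPM in the controls and 42.3 to 64.7 CPM in KO libraries (log2 fold change -1.0 ± 0.16, adjusted p = 0.00144). Of 64 tested genes of the translocon and N-glycosylation, 4 rose and 1 fell (7.81%), 51 were above 0 and their median was 0.16. Their summed level did not overlap, at 4676 to 5133 CPM in control libraries and 5354 to 5839 CPM in KO libraries. The same held for many of the lists read here, so it does not set this list apart. Rpn1, a subunit of the oligosaccharyltransferase, rose, at 147 to 169 CPM in the controls and 206 to 257 CPM in KO libraries (log2 fold change 0.53 ± 0.11, adjusted p = 0.00776). Of 56 tested genes of vesicle transport between ER and Golgi, 2 rose and 2 fell (7.14%), and Ergic1, a cycling membrane protein of that route, fell, at 183 to 236 CPM in the controls and 88.2 to 119 CPM in KO libraries (log2 fold change -1.03 ± 0.15, adjusted p = 0.000466). Retreg1, the ER-phagy receptor also called FAM134B, stood at 8.64, 16.7, 16.7 and 23.3 CPM in the controls and 30.6, 66.3, 43.3 and 97.6 CPM in KO libraries, and rose (log2 fold change 1.88 ± 0.40, adjusted p = 0.0104). It was the sole call among 20 tested genes of ER-phagy and ER shape (5.0%, beside 5.93% of all genes).

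The transducers of the unfolded protein response gave 1 call, a rise, among 16 tested (6.25%, beside 5.93% of all genes), with a median of 0.04. Xbp1, whose spliced form drives many chaperone genes, stood at 35.1, 22.9, 45.2 and 73.4 CPM in the controls and 70.4, 113, 90.0 and 64.3 CPM in KO libraries. Control cold 4 lay above KO cold 1 and KO cold 4, and Xbp1 did not pass (log2 fold change 0.95 ± 0.29, adjusted p = 0.0588). Xbp1 passed without control cold 4 or KO RT 3 (adjusted p 0.0111 to 0.0449) and with DESeq2 (0.032). Ddit3, which encodes CHOP, stood at 23, 25.9, 6.81 and 50.1 CPM in the controls and 72.2, 116, 62.4 and 20.3 CPM in KO libraries (log2 fold change 1.38 ± 0.44, adjusted p = 0.0775). Control cold 4 lay above KO cold 4 here too, and the spread within each genotype was wide. Ddit3 passed without control cold 4 or KO cold 4 (adjusted p 0.0173 to 0.0283). Of 25 tested targets of ATF4, the transcription factor of the integrated stress response, 1 rose and 1 fell (8.0%, beside 5.93% of all genes), with a median of -0.12.

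The promoters of these genes were read for the ER stress response element, the sequence to which XBP1 and ATF6 are known to bind with NF-Y. The letters searched were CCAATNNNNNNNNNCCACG on both strands, in RefSeq windows running from 250 bases before to 50 bases after each gene start (assembly GRCm38.p6). The element was in 37 of 27025 windows (0.137%) and in 16 of the 8392 tested genes that had a window (0.191%). Of those 16 genes, 7 rose in KO and 0 fell, beside 2.44% of all tested genes higher and 3.49% lower. Of the 16, 14 were above 0 and the median log2 fold change was 0.80. The 7 were Calr, Creld2, Derl3, Dnajc3, Hsp90b1, Hspa5 and Pdia6, all already counted as rises in the lists above. Of the 25 tested ER lumen chaperones, 22 had a window and 6 of these held the element (27.3%), among them 5 of the 7 with a window that rose. Among the genes with the element that did not pass were Ero1b, an ER oxidase (log2 fold change 1.20 ± 0.42, adjusted p = 0.102), Syvn1, the ubiquitin ligase HRD1 (log2 fold change 0.73 ± 0.23, adjusted p = 0.0752), and Alg12, a mannosyltransferase of the N-glycan precursor (log2 fold change 0.87 ± 0.28, adjusted p = 0.0811). Syvn1 passed without control cold 4 or KO cold 4 (adjusted p 0.0191 to 0.0417). A second form of the element, ATTGGNCCACG, was in 8 tested genes (0.0953%). Of these, Herpud1 and Dnajb11 rose, the other 6 did not pass, and the median was 0.14. A match is a description of letters and shows no binding.

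The bases around the element are shown for 8 genes that rose, 7 of which share its letters, while Herpud1 holds the second form. Dnajb11, which rose and holds the second form, is not shown because its match runs past the gene start. Canx, which did not pass, is shown because it holds the same element as the 7. Each line runs 5′ to 3′ on the strand of the gene, and capitals mark both parts of the element, with 30 bases on each side where the window allows.
Hspa5, chr2:34771995-34772073, plus strand: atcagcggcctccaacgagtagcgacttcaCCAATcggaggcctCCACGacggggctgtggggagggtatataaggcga
Hsp90b1, chr10:86705608-86705686, minus strand: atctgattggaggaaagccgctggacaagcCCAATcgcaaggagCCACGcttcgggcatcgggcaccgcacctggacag
Hsp90b1 (second window), chr10:86705503-86705581, minus strand: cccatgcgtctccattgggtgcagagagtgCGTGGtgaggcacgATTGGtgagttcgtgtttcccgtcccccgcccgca
Calr, chr8:84847045-84847123, minus strand: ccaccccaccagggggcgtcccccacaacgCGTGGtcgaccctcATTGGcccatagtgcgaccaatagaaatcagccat
Creld2, chr15:88819490-88819568, plus strand: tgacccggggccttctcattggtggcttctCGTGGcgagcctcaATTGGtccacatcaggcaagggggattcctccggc
Dnajc3, chr14:118937797-118937875, plus strand: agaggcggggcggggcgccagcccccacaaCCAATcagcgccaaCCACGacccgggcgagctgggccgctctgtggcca
Pdia6, chr12:17266461-17266539, plus strand: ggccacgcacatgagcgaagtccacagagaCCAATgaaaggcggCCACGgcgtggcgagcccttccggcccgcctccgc
Derl3, chr10:75893212-75893290, plus strand: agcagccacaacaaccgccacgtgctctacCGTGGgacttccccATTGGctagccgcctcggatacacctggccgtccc
Herpud1, chr8:94386347-94386417, plus strand: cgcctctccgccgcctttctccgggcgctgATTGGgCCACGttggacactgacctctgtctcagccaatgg
Canx, chr11:50325770-50325848, minus strand: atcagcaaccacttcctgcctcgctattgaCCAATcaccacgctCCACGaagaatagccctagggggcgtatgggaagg
The order CGTGG before ATTGG, seen in Calr, Creld2, Derl3 and the second line of Hsp90b1, is the same element read from the other strand. Hsp90b1 holds the element 2 times within the same promoter window. Its second line, although labelled as a second window, shows another stretch of that same window. The element of Creld2 is also that of Alg12, which starts in the opposite direction from the same stretch of chromosome 15.

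**Figure D2:**
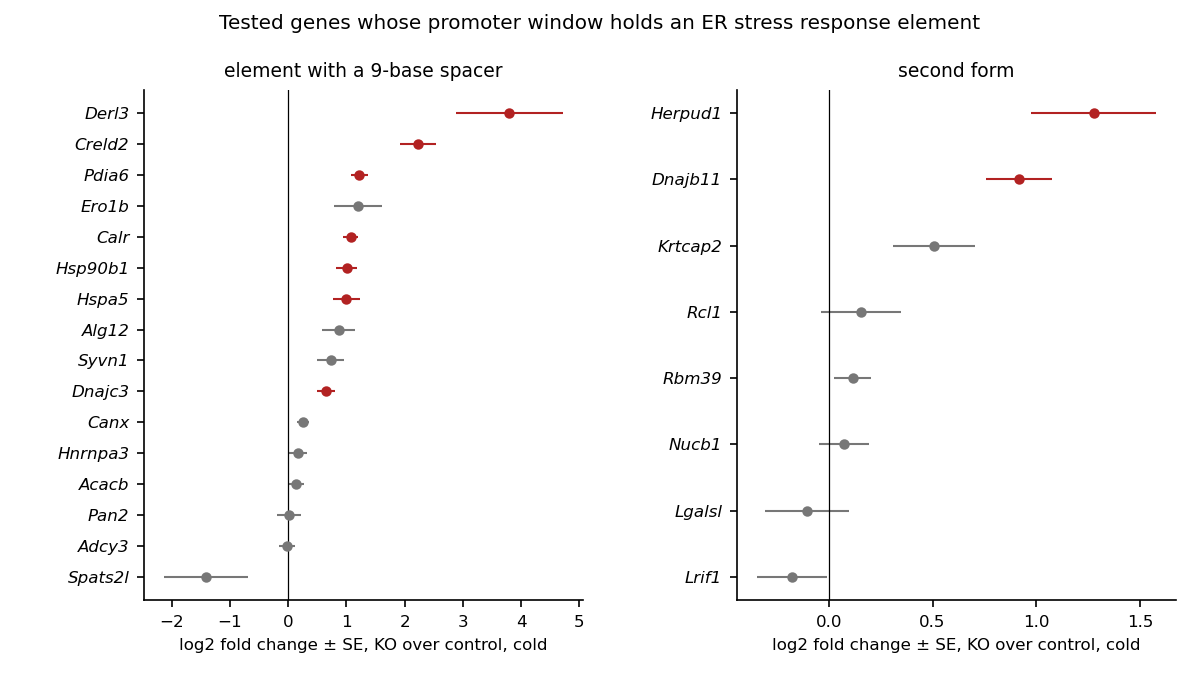
Log2 fold change of KO cold over control cold with its SE (horizontal axis) for the 16 tested genes whose promoter window holds the ER stress response element (left) and the 8 that hold its second form (right). Red points passed the threshold as higher in KO and grey points did not pass; no gene of either panel was lower past the threshold.

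Chaperones of the cytosol lay on the other side of 0. Of 40 tested genes of cytosolic heat shock chaperones and their co-chaperones, 15 fell and 0 rose (37.5%, beside 5.93% of all genes), 34 were below 0 and the median log2 fold change was -0.43. Their summed level was 8473 to 10990 CPM in the controls and 5250 to 6756 CPM in the KO libraries. Hspa4l, a nucleotide exchange factor of the Hsp110 family, stood at 400.3, 415, 455 and 597 CPM in the controls and 93, 111, 133 and 76.2 CPM in KO libraries. No KO library came near the lowest control, and the control mean was 4.53 times the KO mean (log2 fold change -2.18 ± 0.17, adjusted p = 3.63e-06). Hsp90aa1, the inducible cytosolic Hsp90, stood at 1423, 1317, 1702 and 1671 CPM in the controls and 704, 805, 995 and 487 CPM in KO libraries, and fell without overlap (log2 fold change -1.03 ± 0.23, adjusted p = 0.014). Its constitutive relative Hsp90ab1 fell, at 2759 to 3635 CPM in the controls and 1700.4 to 2343 CPM in KO libraries (log2 fold change -0.69 ± 0.14, adjusted p = 0.00668).

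Hspa8, the constitutive cytosolic Hsp70, stood at 282, 353, 478 and 565 CPM in the controls and 168, 157, 205 and 179 CPM in KO libraries (log2 fold change -1.24 ± 0.27, adjusted p = 0.0107). Its exchange factor Hsph1 stood at 142, 165, 266 and 214 CPM in the controls and 41.6, 49, 58.5 and 59.8 CPM in KO libraries (log2 fold change -1.91 ± 0.42, adjusted p = 0.014). Both fell, and for neither did the groups overlap. Hsph1 lost its call with robust dispersion (0.0777). The J-domain partners Dnaja4 (log2 fold change -1.44 ± 0.20, adjusted p = 0.000342) and Dnajb2 (log2 fold change -0.58 ± 0.12, adjusted p = 0.00831), the Hsp90 activator Ahsa1 (log2 fold change -0.94 ± 0.19, adjusted p = 0.00864) and the exchange factor Hspa4 (log2 fold change -0.54 ± 0.10, adjusted p = 0.00347) fell as well. The strongly inducible Hsp70 gene Hspa1b stood at 2.88, 8.03, 37.2 and 39.5 CPM in the controls and 4.90, 5.22, 4.50 and 7.90 CPM in KO libraries and did not pass (log2 fold change -1.92 ± 0.84, adjusted p = 0.211). Its 2 high values came from control cold 3 and 4. The heat shock element searched as GAANNTTCNNGAA on both strands was in 52 of 8392 windows of tested genes (0.62%) and in 3 of 33 from this list, those of Chordc1, Dnajb6 and Hsph1. Of 15 tested chaperonin and prefoldin subunits 2 fell (13.3%), and of 49 proteasome subunits 2 fell (4.08%). Of 24 mitochondrial chaperones and proteases 0 passed with edgeR (1 at an unadjusted p under 0.05, 1 with DESeq2).

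**Figure D3:**
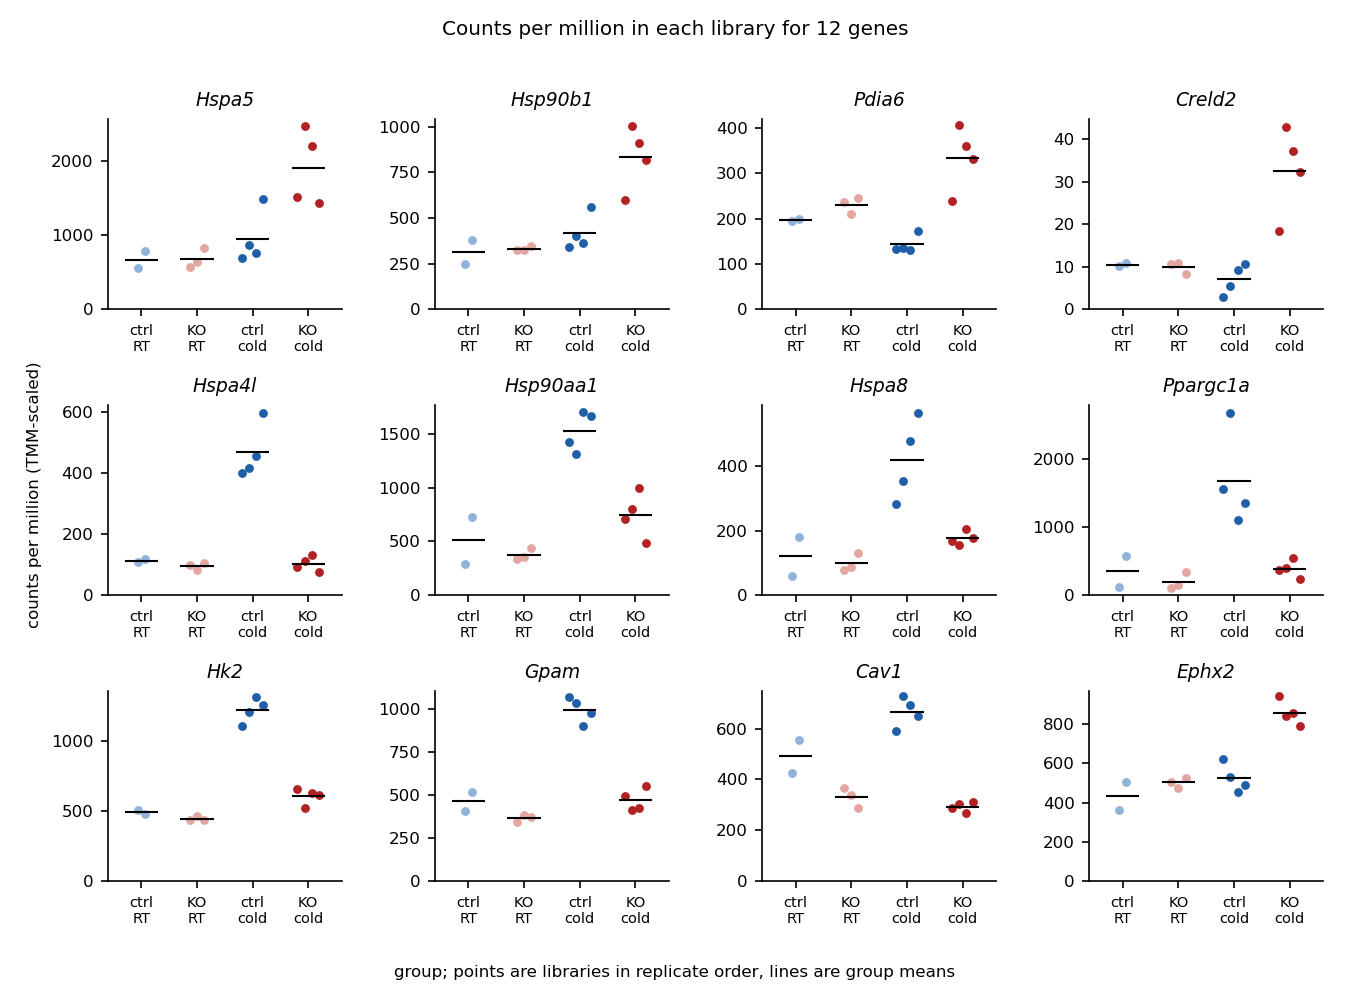
CPM (vertical axes, linear, from 0) of 12 genes in each of the 13 libraries; points are libraries, lines are group means, and the groups are control (ctrl) and KO at RT and in cold. In the top row the 4 KO cold points lie highest for Hsp90b1 and Creld2. For Hspa5 control cold 4 lies above KO cold 4, and for Pdia6 KO RT 3 (246 CPM) lies above KO cold 1 (238 CPM). Hspa4l, Hk2 and Gpam in KO cold lie nearer to the RT points than to control cold.

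Among genes induced through cAMP, the coactivator Ppargc1a, a driver of mitochondrial and thermogenic genes, stood at 1557, 2677, 1114 and 1364 CPM in the controls and 365, 408, 552 and 233 CPM in KO libraries. Each control value was more than 2 times each KO value, and the gene fell (log2 fold change -2.11 ± 0.42, adjusted p = 0.00714). Ppargc1a lost its call with robust dispersion (0.0588). The immediate early and cAMP-induced factors had 6 genes that fell and 0 that rose among 30 tested, 23 of them below 0, with a median of -0.53. Gem, a small GTPase that restrains calcium channels, stood at 6.34, 16.7, 11.2 and 16.2 CPM in the controls and 0.612, 3.13, 2.25 and 1.13 CPM in KO libraries (log2 fold change -2.73 ± 0.55, adjusted p = 0.00721). Atf3, a stress-induced bZIP factor, stood at 18.4, 17.9, 9.29 and 26.8 CPM in the controls and 3.67, 4.70, 5.63 and 1.69 CPM in KO libraries (log2 fold change -2.17 ± 0.50, adjusted p = 0.0163). Neither gene's groups overlapped, though both were low in level. Atf3 lost its call without KO cold 4 (adjusted p 0.0515). Jund, a subunit of AP-1, fell, at 113 to 176 CPM in the controls and 72.2 to 109.5 CPM in KO libraries (log2 fold change -0.77 ± 0.16, adjusted p = 0.0105). A full cAMP response element, TGACGTCA, was in 315 of 8392 windows (3.75%) and in 3 of the 22 windows from this list, with none in the 4 genes of it that fell and had a window. A shorter form, TGACG, which the full element contains, was in 3087 of 8392 windows (36.8%), in 12 of the 22 from this list (54.5%) and in 2 of those 4.

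The regulatory subunits of protein kinase A did not move together. The regulatory subunit RIIbeta, Prkar2b, which is the main one of adipocytes, stood at 1404, 1517, 1396 and 1139 CPM in the controls and 2098, 1926, 2151 and 1728 CPM in KO libraries, and rose (log2 fold change 0.53 ± 0.11, adjusted p = 0.00799). RIIalpha, Prkar2a, fell, at 106 to 132 CPM in the controls and 73.4 to 84.5 CPM in KO libraries (log2 fold change -0.65 ± 0.12, adjusted p = 0.00353). The cAMP phosphodiesterase Pde3a fell, at 42 to 75.6 CPM in the controls and 25.9 to 40.2 CPM in KO libraries (log2 fold change -0.90 ± 0.18, adjusted p = 0.00752). Over all 37 tested genes of adrenergic receptors and cAMP synthesis and breakdown, 2 rose and 4 fell (16.2%, beside 5.93% of all genes), with a median of -0.14.

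Of 18 tested thermogenic effectors, 2 rose and 2 fell (22.2%, beside 5.93% of all genes), 12 were below 0 and the median was -0.12. Their summed level was 21900 to 26040 CPM in control libraries and 18780 to 19990 CPM in KO libraries, without overlap. Sums of many other lists did not overlap either, such as lysosomal and autophagy genes (11350 to 12370 CPM in control, 10430 to 11220 CPM in KO libraries). Potassium and chloride channels and cotransporters were another (3020 to 3264 CPM in control, 2438 to 2567 CPM in KO libraries). Sums of the remaining lists did overlap, such as the proteasome. A sum without overlap therefore sets no list apart. DESeq2 called 6 of the 18. Ucp1 stood at 7504, 9365, 8992 and 9102 CPM in the controls and 6752, 6783, 6905 and 6125 CPM in KO libraries. All 4 KO libraries lay below all 4 control libraries, with a modest difference that did not pass (log2 fold change -0.40 ± 0.12, adjusted p = 0.0577). Ucp1 passed without control cold 1 or KO RT 1 (adjusted p 0.0294 to 0.0415), with robust dispersion (0.0486), with the 8 cold libraries only (0.0214) and with DESeq2 (0.0442). Ucp3, a mitochondrial carrier related to Ucp1, stood at 70.8, 70.4, 78.1 and 57.2 CPM in the controls and 129, 124, 124 and 177 CPM in KO libraries, and rose (log2 fold change 1.0 ± 0.16, adjusted p = 0.00103). Pank1, a kinase at the start of coenzyme A synthesis, fell, at 1468 to 2119 CPM in the controls and 1056 to 1283 CPM in KO libraries (log2 fold change -0.64 ± 0.13, adjusted p = 0.00882). Dio2, which activates thyroid hormone in brown fat, stood at 1660.5, 1883, 1512 and 2189 CPM in the controls and 1277, 1089.8, 1199 and 1077 CPM in KO libraries without overlap, and did not pass (log2 fold change -0.64 ± 0.36, adjusted p = 0.336). Dio2 passed with the 8 cold libraries only (0.00729).

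Calcium handling of the ER held 4 rises and 1 fall among 17 tested genes of pumps, release channels and buffers. That is 29.4% called, beside 5.93% of all genes, with a median of 0.26. Of the rises, Hsp90b1 and Calr are also counted among the chaperones above. Atp2a2, the SERCA2 pump, was the fall: it stood at 467, 599, 549 and 555 CPM in the controls and 318, 378, 365 and 289.5 CPM in KO libraries (log2 fold change -0.68 ± 0.13, adjusted p = 0.00366). Every KO library lay below every control library. Itpr2, an inositol trisphosphate receptor that releases ER calcium, rose, and all 4 KO libraries lay above all 4 control libraries (log2 fold change 0.49 ± 0.11, adjusted p = 0.0171). Itpr2 lost its call without KO cold 4 (adjusted p 0.0524). Of 13 tested genes of mitochondrial calcium uptake 2 fell (15.4%), among them Micu3, a gatekeeper of the uniporter. Micu3 stood at 79.5 to 103 CPM in the controls and 54.5 to 70.0 CPM in KO libraries (log2 fold change -0.57 ± 0.12, adjusted p = 0.0128). Plcg1, the phospholipase C that makes inositol trisphosphate after receptor tyrosine kinases, rose, at 25.4 to 38.6 CPM in the controls and 44.9 to 60.4 CPM in KO libraries (log2 fold change 0.75 ± 0.15, adjusted p = 0.0073). Of 26 tested genes of store-operated entry and contacts between ER and plasma membrane, 2 rose and 2 fell (15.4%), Stim2 being one of the latter.

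Of 27 tested genes of glucose uptake and glycolysis, 6 fell, 2 rose and 19 did not pass (29.6% called, beside 5.93% of all genes), 20 were below 0 and the median log2 fold change was -0.28. Hk2, hexokinase 2, stood at 1106, 1208, 1318 and 1258 CPM in the controls and 659.7, 525, 627 and 613 CPM in KO libraries. The control mean was 2.02 times the KO mean and the spread within each group was narrow (log2 fold change -1.01 ± 0.10, adjusted p = 1.58e-05). The phosphofructokinases followed, Pfkl with 232, 260.1, 257 and 189 CPM in the controls and 154, 103, 106 and 105 CPM in KO libraries (log2 fold change -1.01 ± 0.14, adjusted p = 0.000427), and Pfkp with 197 to 229 against 96.5 to 165 CPM (log2 fold change -0.64 ± 0.14, adjusted p = 0.0103). Hk1 fell, at 44.6 to 72 CPM in the controls and 24.3 to 36.1 CPM in KO libraries (log2 fold change -0.91 ± 0.20, adjusted p = 0.0122). Slc2a4, the insulin-regulated glucose transporter GLUT4, stood at 378, 526, 496 and 337 CPM in the controls and 298, 225, 210.4 and 339 CPM in KO libraries, where KO cold 4 lay just above the lowest control, and fell (log2 fold change -0.70 ± 0.17, adjusted p = 0.0224). Slc2a4 lost its call without control cold 2, control cold 3, KO cold 2 or KO cold 3 (adjusted p 0.0585 to 0.0773). Trarg1, a protein of the vesicles that carry GLUT4, rose, at 13 to 28.8 CPM in the controls and 55.9 to 109 CPM in KO libraries (log2 fold change 1.88 ± 0.29, adjusted p = 0.00093). Pdk2, a kinase that shuts pyruvate dehydrogenase, rose, at 106 to 129 CPM in the controls and 156 to 191 CPM in KO libraries (log2 fold change 0.56 ± 0.11, adjusted p = 0.00503). Of 31 tested genes of pyruvate dehydrogenase and the TCA cycle that was the sole call (3.23%, beside 5.93% of all genes). Of 23 of glycogen metabolism 0 passed with edgeR (3 at an unadjusted p under 0.05, 0 with DESeq2).

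Scd1, the desaturase that makes monounsaturated fatty acids, stood at 5231, 5374, 5344 and 4192 CPM in the controls and 3379, 2673, 2392 and 3651 CPM in KO libraries, and fell (log2 fold change -0.74 ± 0.14, adjusted p = 0.00628). Gpam, the mitochondrial enzyme of the first step to triglyceride, stood at 1069.6, 1032, 899 and 973 CPM in the controls and 493, 414, 422 and 553 CPM in KO libraries (log2 fold change -1.08 ± 0.11, adjusted p = 3.43e-05). For both, the highest KO library stayed below the lowest control library. Acss1, the mitochondrial acetyl-CoA synthetase, fell, at 477 to 680.2 CPM in the controls and 219.7 to 353 CPM in KO libraries (log2 fold change -1.09 ± 0.15, adjusted p = 0.000439), and the acyltransferase Lclat1, at 56.4 to 117 CPM in the controls and 32.6 to 44.3 CPM in KO libraries (log2 fold change -1.24 ± 0.20, adjusted p = 0.00162). Over the lists, 3 genes fell and 1 rose among 29 of fatty acid synthesis (13.8%, beside 5.93% of all genes, median -0.19). Among 32 of triglyceride and phospholipid synthesis, 3 fell and 1 rose (12.5%, median -0.12). Fasn, fatty acid synthase, stood at 2221, 2645, 1822 and 994 CPM in the controls and 2096, 415, 406 and 1399 CPM in KO libraries. Its values varied several-fold within each genotype and the gene did not pass (log2 fold change -0.83 ± 0.43, adjusted p = 0.302).

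Among genes of fat breakdown, Lipe, hormone-sensitive lipase, stood at 449, 323, 376 and 301 CPM in the controls and 558, 568, 559.7 and 509.6 CPM in KO libraries, and rose (log2 fold change 0.60 ± 0.11, adjusted p = 0.00472). Abhd5, the coactivator of the first lipase of the pathway, fell, at 184 to 318 CPM in the controls and 129 to 152 CPM in KO libraries (log2 fold change -0.93 ± 0.16, adjusted p = 0.00211). Pex11g, a peroxisome division factor, rose without overlap, at 11.3 to 17.9 CPM in the controls and 30.4 to 35.5 CPM in KO libraries (log2 fold change 1.26 ± 0.17, adjusted p = 0.000405). Of 35 tested genes of fatty acid oxidation 2 rose and 0 fell (5.71%, beside 5.93% of all genes), 31 were above 0 and the median was 0.16. Slc27a1, the fatty acid transporter FATP1, rose, at 16.1 to 36.3 CPM in the controls and 39.4 to 92.4 CPM in KO libraries (log2 fold change 1.09 ± 0.24, adjusted p = 0.0144). Ppara, the nuclear receptor of fatty acids that drives peroxisomal oxidation, stood at 191, 141, 110.3 and 125 CPM in the controls and 222, 314, 278 and 178 CPM in KO libraries, and rose with slightly overlapping groups (log2 fold change 0.81 ± 0.18, adjusted p = 0.0145). Ppara lost its call without KO cold 2 (adjusted p 0.0523).

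Ephx2, soluble epoxide hydrolase, which opens fatty acid epoxides, stood at 623, 531, 455 and 491 CPM in the controls and 942, 844, 855 and 789.5 CPM in KO libraries (log2 fold change 0.71 ± 0.12, adjusted p = 0.00211). Por, the reductase that feeds electrons to all microsomal P450 enzymes, stood at 191, 202, 183 and 219.5 CPM in the controls and 325, 369, 309 and 347 CPM in KO libraries (log2 fold change 0.76 ± 0.11, adjusted p = 0.000546). Both groups were tight and apart for each of these genes. Adtrp, a hydrolase of fatty acid esters of hydroxy fatty acids, stood at 194, 208, 205 and 143 CPM in the controls and 403, 429, 479 and 482 CPM in KO libraries, 2.39 times higher on average in KO (log2 fold change 1.26 ± 0.12, adjusted p = 1.82e-05). Aldh3b2, an aldehyde dehydrogenase attached to lipid droplets, rose, at 3.53 to 6.18 CPM in the controls and 20.9 to 25.6 CPM in KO libraries (log2 fold change 2.24 ± 0.28, adjusted p = 0.000173). Of 30 tested P450 and aldehyde dehydrogenase genes, 3 rose and 0 fell, and 21 were above 0. Bdh1, the mitochondrial enzyme that interconverts ketone bodies, stood at 16.1, 35.2, 32.8 and 27.5 CPM in the controls and 0.612, 0.522, 0 and 2.82 CPM in KO libraries and fell (log2 fold change -4.72 ± 0.50, adjusted p = 5.10e-05).

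Amino acid breakdown and one-carbon metabolism held a few strong calls. Bcat2, the mitochondrial transaminase that begins branched-chain amino acid breakdown, stood at 38.6, 36.5, 43.4 and 36.7 CPM in the controls and 86.3, 79.8, 65.8 and 94.8 CPM in KO libraries, and rose (log2 fold change 1.07 ± 0.14, adjusted p = 0.000292). Ppm1k, the phosphatase that activates the next enzyme complex, rose, at 45.2 to 89 CPM in the controls and 86.6 to 142 CPM in KO libraries, with the highest control library just above the lowest KO library (log2 fold change 0.96 ± 0.20, adjusted p = 0.00913). Mcee, a late step of the same route, fell, at 163 to 282 CPM in the controls and 94.4 to 164 CPM in KO libraries (log2 fold change -1.04 ± 0.20, adjusted p = 0.00589). In all, 3 rose and 2 fell (22.7%, beside 5.93% of all genes), and 18 of 22 were above 0, with a median of 0.19. Shmt2, which moves a one-carbon unit from serine to folate in mitochondria, rose, at 4.34 to 8.65 CPM in the controls and 9.03 to 24 CPM in KO libraries (log2 fold change 1.36 ± 0.29, adjusted p = 0.0113). Gclm, the regulatory subunit of the first enzyme of glutathione synthesis, fell, at 97.6 to 128 CPM in the controls and 63 to 79.3 CPM in KO libraries (log2 fold change -0.66 ± 0.15, adjusted p = 0.0154). The neutral amino acid exchanger subunit Slc7a6 fell, at 107 to 196 CPM in the controls and 44.1 to 59.8 CPM in KO libraries (log2 fold change -1.58 ± 0.17, adjusted p = 4.36e-05). Gmpr, which turns GMP to IMP in purine salvage, stood at 1977, 2229.8, 2409.8 and 2679.6 CPM in the controls and 577, 804, 932 and 522 CPM in KO libraries, 3.28 times higher on average in control (log2 fold change -1.71 ± 0.26, adjusted p = 0.000864).

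At the cell surface, some of the smallest p-values belonged to transporters and membrane organisers that fell in KO. Slc12a2, the cotransporter of sodium, potassium and chloride, stood at 352, 465, 521 and 459.5 CPM in the controls and 133, 139, 154 and 176 CPM in KO libraries (log2 fold change -1.58 ± 0.14, adjusted p = 1.00e-05). Slc39a14, the zinc and iron importer ZIP14, stood at 68.5, 70.4, 53.9 and 96.7 CPM in the controls and 14.7, 13.6, 15.8 and 11.3 CPM in KO libraries (log2 fold change -2.38 ± 0.20, adjusted p = 8.12e-06). The control means were 2.99 and 5.24 times the KO means. Cav1, caveolin-1, the coat protein of the caveolae that crowd the adipocyte membrane, stood at 589, 727, 692 and 647 CPM in the controls and 289, 302, 269 and 312 CPM in KO libraries (log2 fold change -1.18 ± 0.11, adjusted p = 1.82e-05), and its partner Cav2 fell with it (log2 fold change -0.98 ± 0.14, adjusted p = 0.000467). These were the 2 calls among 10 tested caveolar genes, of which 6 were above 0. Ackr3, a scavenging receptor of chemokines, fell, at 251 to 311 CPM in the controls and 41.6 to 87.5 CPM in KO libraries (log2 fold change -2.00 ± 0.28, adjusted p = 0.000466), and Npr3, the clearance receptor of natriuretic peptides, at 124 to 361 CPM in the controls and 25.4 to 43.9 CPM in KO libraries (log2 fold change -2.55 ± 0.32, adjusted p = 0.00014).

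Pcsk6, a proprotein convertase, stood at 135, 155, 196 and 221 CPM in the controls and 48.3, 49.6, 46.1 and 50.8 CPM in KO libraries. The KO values were nearly equal and far below the control range (log2 fold change -1.86 ± 0.15, adjusted p = 3.66e-06). G3bp2, an RNA-binding protein of stress granules, stood at 521, 652, 953 and 741 CPM in the controls and 200.1, 188, 169.9 and 234 CPM in KO libraries (log2 fold change -1.86 ± 0.19, adjusted p = 2.01e-05). Ebf1, a transcription factor of the adipocyte lineage, fell, at 359 to 521 CPM in the controls and 166 to 190.1 CPM in KO libraries (log2 fold change -1.28 ± 0.12, adjusted p = 1.00e-05). Both fell without overlap. Of 39 tested genes of insulin, IGF1 and growth hormone signalling, 7 fell and 0 rose (17.9%), 27 were below 0 and the median was -0.24. Igf1 stood at 48.4, 43.9, 42.1 and 39.5 CPM in the controls and 25.7, 23, 16.9 and 16.4 CPM in KO libraries (log2 fold change -1.09 ± 0.24, adjusted p = 0.0125). The kinase Pdpk1, which activates Akt, fell, at 151 to 174 CPM in the controls and 110.2 to 121 CPM in KO libraries (log2 fold change -0.48 ± 0.10, adjusted p = 0.0113), and Rheb, the GTPase that activates mTORC1, at 167 to 245 CPM in the controls and 126 to 159 CPM in KO libraries (log2 fold change -0.58 ± 0.12, adjusted p = 0.00992). Of 66 tested lysosomal and autophagy genes 5 fell and 0 rose (7.58%, beside 5.93% of all genes), and Lamp2, an abundant lysosomal membrane protein, stood at 664, 878, 733 and 818 CPM in the controls and 549, 528, 525 and 508 CPM in KO libraries (log2 fold change -0.55 ± 0.11, adjusted p = 0.00534).

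**Figure D4:**
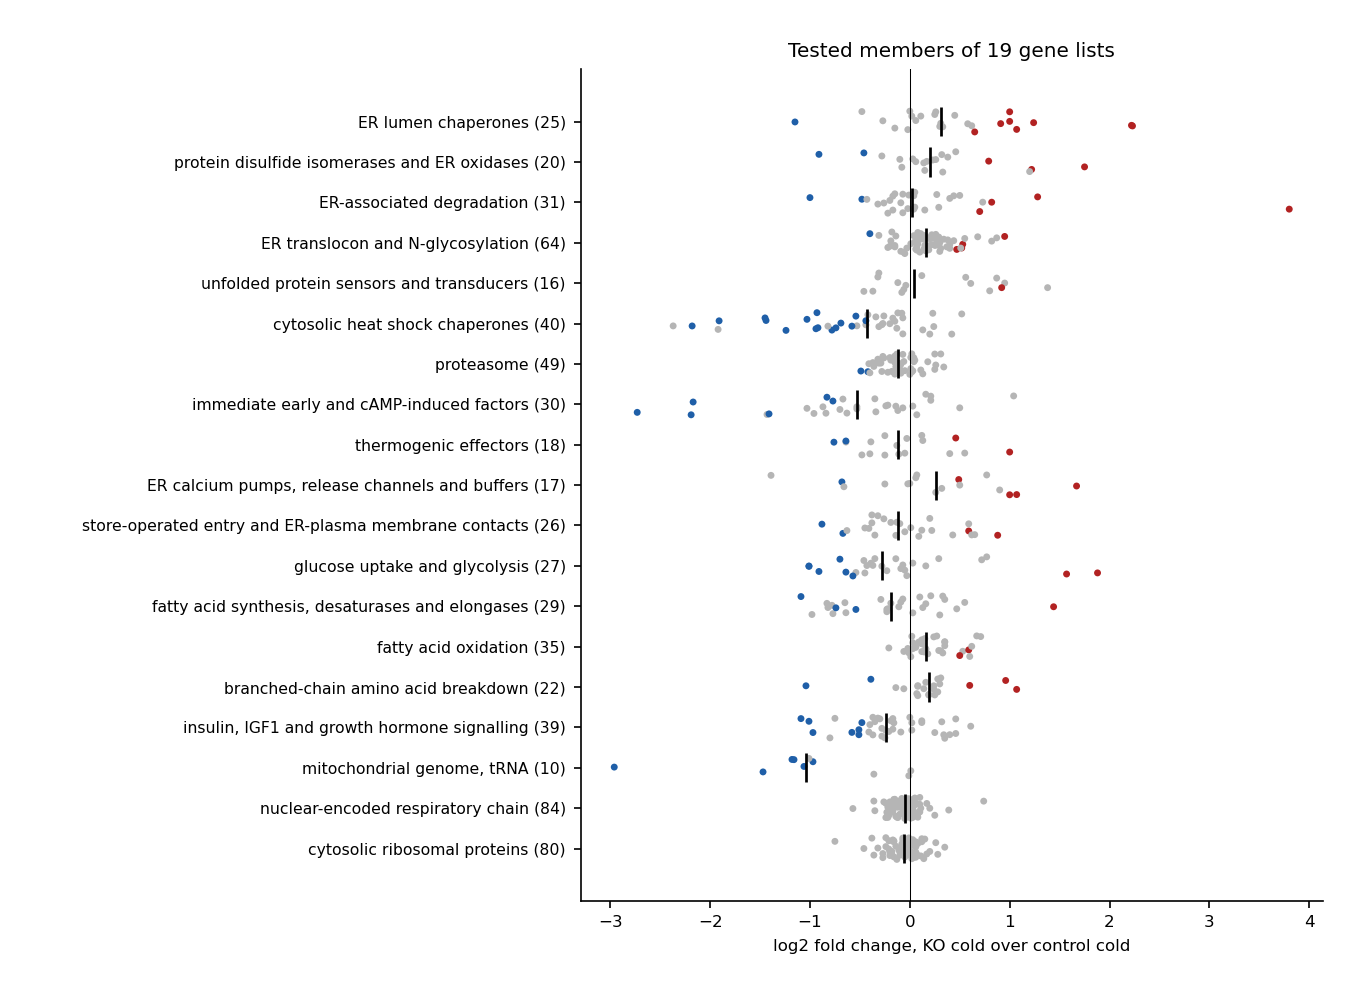
Log2 fold change of KO cold over control cold (horizontal axis) for the tested members of 19 gene lists, with the number tested in brackets; each point is a gene, black bars are list medians, and red and blue points passed the threshold as higher or lower in KO. The lists of ER chaperones and of cytosolic heat shock chaperones lie on opposite sides of 0, and the respiratory chain and ribosomal proteins hold no coloured point.

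Of the lists of mitochondrial genes, that of the mitochondrial tRNA genes held the most calls. None of 84 tested nuclear genes of the respiratory chain passed with edgeR's quasi-likelihood test (median -0.05), nor did any of 8 tested mRNAs of the mitochondrial genome (median -0.14), any of 80 cytosolic ribosomal proteins (median -0.05) or any of 13 genes of coenzyme Q synthesis (median 0.17). At an unadjusted p under 0.05 these 4 lists held 4, 2, 6 and 1 genes, and DESeq2 called 1, 1, 0 and 0 of them. Of 10 tested mitochondrial tRNA genes, 6 fell and the median was -1.03. Tags of tRNA genes come from a poly(A)-primed library and need not be mature tRNA, so they are given as read. mt-Tq stood at 118, 188, 233 and 165 CPM in the controls and 74.7, 97, 90.0 and 97.1 CPM in KO libraries (log2 fold change -0.97 ± 0.19, adjusted p = 0.00574). mt-Ta stood at 21.3, 22.2, 48.3 and 41.6 CPM in the controls and 10.4, 11.5, 14.6 and 11.3 CPM in KO libraries (log2 fold change -1.47 ± 0.30, adjusted p = 0.00772). For both genes the groups did not overlap, and mt-Tc also fell (log2 fold change -2.96 ± 0.54, adjusted p = 0.00361). The most abundant gene to pass was a mitochondrial rRNA, mt-Rnr1, at 11644, 14768, 15178 and 18599 CPM in the controls and 10724, 11047, 12273 and 8419 CPM in KO libraries, which overlapped (log2 fold change -0.50 ± 0.14, adjusted p = 0.0369). mt-Rnr1 lost its call without control cold 2, control cold 3, control cold 4, KO cold 1, KO cold 2, KO cold 4 or KO RT 2 (adjusted p 0.0554 to 0.113), with a replicate block (0.0541) and with the 8 cold libraries only (0.0506). Arranged by strand after these values were seen, the 5 tested genes of the light-strand transcript had a median of -1.06 with 4 that fell, and the 15 of the heavy-strand transcript a median of -0.28 with 3 that fell. The remaining light-strand gene, mt-Nd6, stood at 175, 271, 377 and 181 CPM in the controls and 134, 181, 158 and 141 CPM in KO libraries (log2 fold change -0.71 ± 0.21, adjusted p = 0.0512). mt-Nd6 passed without control cold 1 or control cold 4 (adjusted p 0.0246 to 0.0262), with relative log expression scaling (0.0486), with a replicate block (0.0357) and with DESeq2 (0.0247). Without use of strand in counting known, these tags may include those of genes on the opposite strand.

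Structural genes were mixed. Lama4, a laminin chain of vessel and adipocyte basement membranes, stood at 29.4, 25.9, 37.8 and 17.6 CPM in the controls and 75.3, 63.6, 74.8 and 72.2 CPM in KO libraries, and rose (log2 fold change 1.36 ± 0.17, adjusted p = 0.000199). Col4a1, the main collagen of the same sheet, stood at 554, 498, 594 and 708 CPM in the controls and 297, 399.6, 335 and 294 CPM in KO libraries, and fell (log2 fold change -0.83 ± 0.15, adjusted p = 0.00323), as did Col4a2 (log2 fold change -0.91 ± 0.15, adjusted p = 0.00206). Lox, the crosslinking oxidase, fell, at 53.3 to 93.9 CPM in the controls and 20.9 to 34.4 CPM in KO libraries (log2 fold change -1.51 ± 0.19, adjusted p = 0.00014). Of 36 tested genes of fibroblast matrix 3 fell and 0 rose (8.33%, beside 5.93% of all genes), 31 were below 0 and the median was -0.42.

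Markers of other cell types moved alongside some of these groups. The 11 tested fibroblast markers of 12 were all below 0 (median -0.55) with 0 past the threshold in edgeR (1 at an unadjusted p under 0.05, 0 with DESeq2), and their summed level was 727 to 1730 CPM in the controls and 743 to 876 CPM in the KO libraries. Here control cold 2 made the upper end. All 16 tested of 18 macrophage and monocyte markers were below 0 as well (median -0.54), with 0 past the threshold (3 at an unadjusted p under 0.05, 0 with DESeq2), and their sums were 465 to 718 CPM in the controls and 316 to 441 CPM in the KO libraries, without overlap. The 13 tested of 14 smooth muscle and pericyte markers summed to 966 to 1140 CPM and 783 to 955 CPM. Of the 13, 2 fell (15.4%) and 5 were above 0, with a median of -0.16. The more abundant of the 2 had means of 353 CPM in control and 179 CPM in KO libraries. Mean sums of the 13 were 1052 and 854 CPM, so that marker made up most of the difference. The 19 tested of 20 endothelial markers summed to 1230 to 1970 CPM and 1620 to 1940 CPM with 0 past the threshold, at an unadjusted p under 0.05 or with DESeq2, and the 5 tested of 7 erythrocyte markers to 1330 to 2840 CPM and 1430 to 3300 CPM. No defining marker of these 5 lists was at 0. The part of these cells in the values of matrix genes and of Igf1 was not tested. The 17 tested of 19 skeletal muscle markers summed to 57.6 to 428 CPM and 73.4 to 540 CPM, varying within both genotypes. Markers of lymphocytes summed to 4.94 to 9.89 CPM in the controls and 1.57 to 11.9 CPM in the KO libraries with Cd79a at 0, those of granulocytes and mast cells to 9.79 to 21.6 CPM and 6.77 to 17.7 CPM with Ly6g at 0, and those of nerve and Schwann cells to 205 to 401 CPM and 227 to 261 CPM with Gfap at 0. Markers of mesothelium and epithelium (4 of 9 at 0) and of lymph node and thymus stroma (5 of 6 at 0) summed to at most 12.7 and 1.15 CPM. The 6 tested of 11 white adipocyte markers summed to 253 to 488 CPM in control libraries and 161 to 217 CPM in KO libraries, without overlap. Of the 6, 1 fell and 3 were above 0, with a median of -0.11, and Hoxc10 and Tcf21 were at 0. The marker that fell was Npr3, described above, with a mean of 205 CPM in control and 34.7 CPM in KO libraries. Mean sums of the 6 were 336 and 175 CPM, so the difference between the sums was that of Npr3. The part of white adipocytes in the value of Npr3 was not tested. The 13 brown adipocyte markers were all present and summed to 27100 to 32800 CPM in the controls and 24100 to 25700 CPM in the KO libraries. Of the 13, 1 fell, Ppargc1a, and 6 were above 0, with a median of -0.05 (5 at an unadjusted p under 0.05, 4 with DESeq2). Mean sums were 29630 and 24980 CPM, with Ucp1 at 8741 and 6641 CPM and Ppargc1a at 1678 and 389 CPM. The adipokine Adipoq, the gene whose promoter drives Cre, stood at 1153 to 1364 and 1167 to 1522 CPM (log2 fold change 0.10 ± 0.10, adjusted p = 0.657).

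The genes nearest to the edited and borrowed loci were read in the same way. Of the 5 genes on each side of Adipoq on chromosome 16, Eif4a2, a translation initiation factor, stood at 388, 303, 307 and 354 CPM in the controls and 412, 419, 469 and 437 CPM in KO libraries, and rose by a small amount (log2 fold change 0.36 ± 0.10, adjusted p = 0.0432). Eif4a2 lost its call without control cold 2, control cold 3, control cold 4, KO cold 1, KO cold 2, KO cold 3, KO cold 4, KO RT 1, KO RT 2 or KO RT 3 (adjusted p 0.0516 to 0.124), with no low-count filter (0.0859), with a replicate block (0.079) and with the 8 cold libraries only (0.0667). At RT it stood at 227 and 245 CPM in the 2 control and 354, 347 and 360.1 CPM in the 3 KO libraries. No other tested neighbour of Adipoq, and none of those of Stim1 on chromosome 7 or Stim2 on chromosome 5, passed the threshold.

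At RT, 2 control and 3 KO libraries were compared, none of them a cold one, within the same fit and its shared estimate of the spread. No gene passed the same test (0 of 11073, with 346 at an unadjusted p under 0.05 against 2224 in cold, and 8 with DESeq2). Skeletal muscle markers summed to 3720 and 134 CPM in the RT controls and 2310, 1640 and 236 CPM in the RT KO libraries. The RT controls also differed most of all replicate pairs (chi-square over its degrees of freedom 6.67). A gene that did not pass at RT is therefore not shown to be unaltered there. Of the 657 genes that differed in cold, 462 (70.3%) had the same sign at RT, against 6012 (54.3%) of all tested genes. As a description only, since these genes were chosen for passing in cold, which favours large values there, the 270 genes higher in cold had a median log2 fold change of 0.89 in cold and 0.12 at RT, and the 387 lower ones of -0.78 and -0.12. The difference between the cold and RT genotype effects itself passed for 2 genes (0.0181% of those tested), both lower in KO. One was Hspa4l, which stood at 108 and 118 CPM in the controls and 99.3, 83.8 and 104 CPM in KO libraries at RT (difference of log2 fold changes -1.94 ± 0.27, adjusted p = 0.021). The other was Pcsk6, at 47.8 and 55.4 CPM in the controls and 46.1, 41.3 and 46.2 CPM in KO libraries at RT (-1.65 ± 0.25, adjusted p = 0.0269). For both, the KO cold values lay close to those of the RT libraries.

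Values of both temperatures are set side by side for some of the genes above. Hspa5 had a log2 fold change of 1.0 ± 0.23 in cold and 0.01 ± 0.29 at RT, Creld2 2.23 ± 0.31 and -0.07 ± 0.42, and Pdia6 1.22 ± 0.15 and 0.23 ± 0.19. The difference between temperatures did not pass for any of these 3 (Hspa5 0.99 ± 0.37, adjusted p = 0.493). Bcat2 stood at 59.3 and 44 CPM in the controls and 96.2, 89.5 and 85.6 CPM in KO libraries at RT, with a log2 fold change of 0.80 ± 0.18 there and 1.07 ± 0.14 in cold. Gmpr (-1.21 ± 0.36 at RT, -1.71 ± 0.26 in cold), Ackr3 (-1.02 ± 0.36 and -2.00 ± 0.28) and Aldh3b2 (1.07 ± 0.33 and 2.24 ± 0.28) had the same sign in both. None of these RT differences passed after adjustment. The difference between temperatures did not pass for Bcat2, Gmpr, Ackr3 or Aldh3b2 either (Aldh3b2 1.175, adjusted p = 0.505 by the same quasi-likelihood test). The values therefore do not divide these genes into those changed in cold only and those changed at both temperatures.

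**Figure D5:**
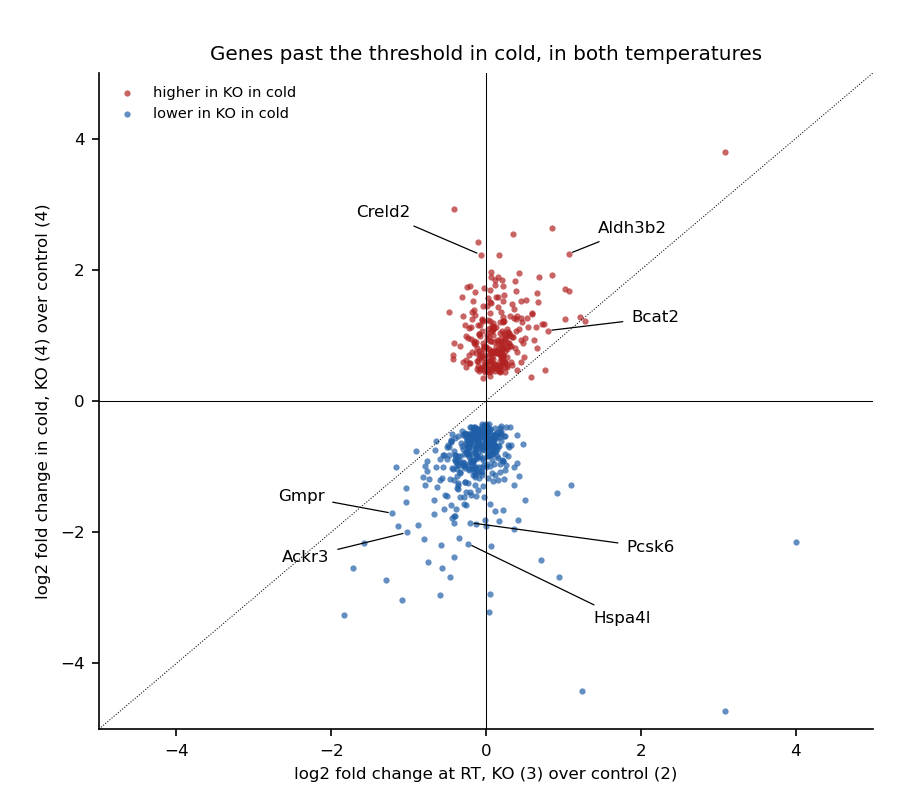
Log2 fold change of KO over control in cold (vertical axis) against that at RT (horizontal axis) for the genes past the threshold in cold, red for higher and blue for lower in KO; 3 of the 657 lie outside the axes, and the dotted line marks equal values. Most points lie nearer to the vertical axis than to the dotted line, and Hspa4l and Pcsk6 are the 2 genes whose difference between temperatures passed.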

How the data were processed

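Brown adipose tissue RNA of 13 samples was read with a 3′ tag kit (QuantSeq), per the labels' protocols. The authors deposited unscaled whole-number counts for each Ensembl gene. The submitters' processing notes list the build GRCm39 and the tools HTSeq 0.12.3, STAR 2.7.10b, UMI-tools 1.1.2 and Trim Galore 0.6.7, and the table's name gives the Ensembl release. Whether molecular identifiers or strand were used in counting is not given in the sources used here, so counting intervals cover counting error only. Of 55632 lines, 275 repeated an identifier and were dropped, and 2558 had no symbol, of which 387 took one from a reference table. RefSeq sequences were at hand for another build only, so genes are given by chromosome only, and promoter windows in GRCm38.p6.

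Counts of all 13 libraries were fitted with edgeR 4.0.16 in R 4.3.3: 1 coefficient per group, TMM scaling, filterByExpr with a minimum count of 10, the quasi-likelihood test (two-sided) and Benjamini-Hochberg adjustment over 11073 genes, called under 0.05. CPM are TMM-scaled over the tested genes. The common biological coefficient of variation was 16.1%. Every replicate pair differed by more than sampling noise (chi-square over its degrees of freedom 1.97 to 6.67). On simulated counts with known changes the fit recovered 18.4% of 1.5-fold, 73.6% of 2-fold and 94.4% of 4-fold changes in the cold comparison (10771 to 10791 genes), with 4.86% of calls false. Only genes with an expected count of at least 10 in a library of mean size were changed, so scarcer genes are not covered. Counts were drawn from a negative binomial at each gene's fitted dispersion, with no other group difference. Alternatives were DESeq2 1.42.0, relative log expression scaling, other filters, robust dispersion, the 8 cold libraries alone, a replicate block and leaving out each library. Same-numbered control and KO libraries deviated from their group means with correlations of 0.138, -0.0824, 0.0529 and -0.163, so the numbers do not pair them.

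The libraries, gene lists and named-gene rule were chosen with earlier results of these data known. Named genes were Stim1, Stim2 and Ucp1; the 10 most abundant, the 12 with the smallest p and fold ranks 11 to 20 in each direction, among called genes with a mean CPM of at least 5 and no overlap of groups; up to 4 called members of each list by p, or the 2 most abundant where fewer than 2 passed; and the 5 genes on each side of Adipoq, Stim1 and Stim2. The genes with an ER stress response element were named for it. Ahsa1, Chordc1, Ddit3, Dio2, Dnajb2, Dnajb6, Fasn, Hk1, Hspa1b, Hspa8, Manf, Orai1, Slc2a4, Xbp1, mt-Nd6 and mt-Rnr1 were named after their values were seen. Lists are described by counts and medians, with no test of a list. One gene that the rule names is not reported here.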

Additional observations from a re-analysis of the deposited data

Results flagged for a closer look

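Among the 118 genes named in the text, each genotype's 4 cold libraries were examined for 1 library standing apart from the other 3 by Dixon's criterion, and 13 of 236 groups (5.51%) had one. Chance marks about 1 in 20 groups. In control cold 4, Cars2 stood at 871 CPM (next highest 433), Fam117a at 632 CPM (303), Pdia6 at 172 CPM (136) and Derl3 at 1.41 CPM (0), all high, and Scd1 at 4192 CPM (5231) was low. That library held 5 of the 13, and it was also the highest control library for Hspa5. In KO cold 4, Mcee at 164 CPM (102) and Ucp3 at 177 CPM (129) were high and Lipe at 509.6 CPM (558) was low. KO cold 2 was high for Lclat1 at 44.3 CPM (33.9), Fam117a at 116 CPM (96.7) and Fgf9 at 0.522 CPM, which is its sole count among the 4 KO cold libraries. KO cold 3 was high for Gclm at 79.3 CPM (64.2), and KO cold 1 for Pfkl at 154 CPM (106).

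The effect of genotype differed between cold and RT, tested as the difference itself with edgeR's quasi-likelihood test, for Hspa4l (difference of log2 fold changes -1.94, adjusted p = 0.021) and Pcsk6 (-1.65, adjusted p = 0.0269). Both rest on 2 control and 3 KO libraries at RT.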

How the results depend on the processing

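Of 657 genes called (270 higher, 387 lower in KO), the count was 667 with DESeq2, 596 of them shared, 564 with a replicate block, 575 with the 8 cold libraries alone and 660 to 681 with relative log expression scaling, robust dispersion or a mean CPM of at least 5. With no low-count filter it was 982, of which 442 were higher. In that fit the prior degrees of freedom were infinite for all 22904 genes, against 7.58 otherwise, so its p-values do not use a gene's own spread, and the 8 uncalled named genes that passed in it are not counted as changed. Leaving out 1 library gave 392 to 716 genes, 152 to 310 higher and 233 to 408 lower. The lowest counts came from leaving out a KO cold library, and 167 genes were higher without control cold 2. Of the 103 named genes that were called, 91 kept the call in every leave-out, 12 lost it in some, and 0 reversed. The block cost 2 of the 103 their call. Same-numbered libraries share only a number, so a call lost with the block is no weaker effect. At 1570684 to 1921870 counts per cold library, changes under 2-fold were often missed on simulated counts, so a gene that did not pass is not shown to be unaltered.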

Other observations

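Several genes of smaller or less familiar families stood apart between the genotypes in cold. Mreg, melanoregulin, rose, at 4.03, 4.94, 4.96 and 3.53 CPM in the controls and 15.3, 11, 11.8 and 13.5 CPM in KO libraries (log2 fold change 1.54 ± 0.28, adjusted p = 0.00375). Cdk6, a cyclin-dependent kinase, rose as well, at 35.1, 25.3, 46.5 and 26.1 CPM in the controls and 85.7, 67.8, 65.8 and 89.7 CPM in KO libraries (log2 fold change 1.21 ± 0.18, adjusted p = 0.000848), and so did Fbxo31, a ubiquitin ligase subunit, at 31.6 to 99.1 and 127 to 319 CPM (log2 fold change 1.65 ± 0.33, adjusted p = 0.00765). Rpa2, a subunit of the single-stranded DNA-binding complex, had 1.86 to 3.71 CPM in control, 6.21 to 10.1 CPM in KO and 12.7 to 17.2 CPM in the 5 RT libraries (log2 fold change 1.58 ± 0.31, adjusted p = 0.00613). Npc1, the lysosomal cholesterol exporter, rose, at 39.2, 28.4, 29.7 and 38.8 CPM in the controls and 63.6, 83.5, 66.9 and 103 CPM in KO libraries (log2 fold change 1.22 ± 0.18, adjusted p = 0.000848). It was the sole call among 26 tested genes of cholesterol synthesis and transport (3.85%, beside 5.93% of all genes). Of the 26, 19 were below 0, with a median of -0.31. Tns1, a focal adhesion protein, was abundant and rose by a small amount with narrow spread, at 787, 649, 665 and 753 CPM in the controls and 1018, 951, 928 and 983 CPM in KO libraries (log2 fold change 0.44 ± 0.09, adjusted p = 0.00978).

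Among genes that fell, Fgf9, a secreted growth factor, had 267 counts in the 4 control and 1 count in the 4 KO cold libraries, a ratio of control over KO of 297 with a 95% counting interval of 52.8 to 11800. At RT it stood at 2.76 and 6.63 CPM in the controls and 1.01, 0 and 1.57 CPM in KO libraries. Dgkg, a diacylglycerol kinase, stood at 10.4, 28.4, 23.5 and 28.2 CPM in the controls and 1.22, 0, 0.563 and 2.26 CPM in KO libraries (log2 fold change -4.41 ± 0.51, adjusted p = 6.64e-05), and at 0 to 1.01 CPM in the RT libraries. Cars2, a mitochondrial aminoacyl-tRNA synthetase, stood at 418, 428, 433 and 871 CPM in the controls and 165, 213, 194 and 104 CPM in KO libraries (log2 fold change -1.67 ± 0.28, adjusted p = 0.00197). Fam117a had the same shape, at 290.3, 303, 285 and 632 CPM in the controls and 96.7, 116, 93.9 and 95.4 CPM in KO libraries (log2 fold change -1.91 ± 0.23, adjusted p = 0.000102), and control cold 4 was the highest library for both. Ankrd9, which regulates degradation of metabolic enzymes, fell, at 219 to 380.5 CPM in the controls and 76.5 to 95 CPM in KO libraries (log2 fold change -1.89 ± 0.19, adjusted p = 2.01e-05), and Ube2q2, a ubiquitin-conjugating enzyme, at 73.1 to 93.2 and 25.7 to 33.4 CPM (log2 fold change -1.47 ± 0.15, adjusted p = 2.01e-05). Of 38 tested genes of ribosome biogenesis 2 fell and 0 rose (5.26%, beside 5.93% of all genes), with 32 below 0 and a median of -0.27. The 21 circadian clock, 23 Hippo pathway and 23 interferon-stimulated genes tested gave 0 calls with edgeR, with 4, 6 and 2 at an unadjusted p under 0.05, and 1, 0 and 0 calls with DESeq2.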
